A study of Mus musculus with 37 samples.

Results

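The genes of the subcortical maternal complex, a protein assembly beneath the cortex of the mouse oocyte, were followed through meiotic maturation. The 6 members Nlrp5, Ooep, Tle6, Khdc3, Padi6 and Zbed3 were taken by gene symbol as reported components of the complex, and all 6 were found among the 54752 genes of the count tables. RNA had been sequenced from 37 single oocytes of C57BL/6 females aged 6 to 8 weeks, in a study of transcript isoforms during maturation. Batch A held 6 oocytes at the germinal vesicle (GV) stage, taken from ovaries 48 h after PMSG, and 6 at metaphase II (MII), taken from the ampulla 15 h after hCG. Batch B held 10 GV oocytes and 15 at metaphase I (MI), the latter from GV oocytes cultured for 8 h in M16 medium. MII oocytes had thus matured in the animal and MI oocytes in culture, and the 2 stages shared no batch.

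The complex is made from mRNA stored during oocyte growth, and its proteins persist into the cleaving embryo, where they sit at the outer cortex. Loss of core members from the mother leaves the oocyte able to be fertilized but stops or disturbs the first cleavages, so the genes are known as maternal-effect genes. Transcription is silent from the fully grown GV stage until the embryonic genome is activated, and stored mRNAs are in that interval either degraded or kept and translated through changes in their poly(A) tails.

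Depth, as the sum of RSEM expected counts over genes, ran from 7509875 to 12648629 at GV and from 9930485 to 13988444 at MII in batch A. In batch B the range was 7184205 to 17724506 in GV and 2709280 to 19390128 in MI oocytes. Some libraries stood apart. MII oocyte 1 had 29518 genes with at least 1 count, against a median of 20264.5 at MII. MI oocyte 15 had the lowest depth, and MI oocytes 4, 8 and 9 had 1.13, 1.11 and 1.07 HTSeq counts per RSEM count in the median gene, against 2.07 in the median MI oocyte. The labels name no animal for any oocyte, so every p-value below measures the spread between oocytes and not between animals.

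The oocyte identity of the samples was visible in all groups. The 10 oocyte markers summed to a median of 10540 TMM-normalized CPM (counts scaled to a common library size) in GV and 6961 in MII oocytes of batch A, and to 3777 in GV and 3567 in MI oocytes of batch B, with Gdf9 the most abundant in each group. Of these markers, Zp1, Zp2 and Zp3 were lower at MII (edgeR adjusted p = 7.69e-05, 0.000111 and 1.05e-05), beside 11.5% of all genes tested. At MI none was called by edgeR or DESeq2, where edgeR called 0.0483% of all genes lower and 0.0966% higher, and 2 had an unadjusted p under 0.05, as had 11.0% of all genes. The 19 cumulus and granulosa markers summed to a median of 46.2, 36.7, 35.4 and 34.8 CPM in the same order, and the 7 blood and immune markers to at most 15.5 CPM in any oocyte, reached in MII oocyte 1. In batch A 2 cumulus and granulosa markers, Cyp19a1 and Nr5a2, had counts enough to be tested. Neither was called (edgeR log2 fold change 0.12 and 0.10, adjusted p = 0.73 and 0.77). Ccnd2, Cyp11a1 and Inha, named after their values were seen, were not tested there and stood at medians of 2.31, 2.79 and 0.99 CPM at GV and 0, 0.50 and 0 CPM at MII. Of the other markers not tested that had a median above 0, most were also lower at MII. Gja1 went from 0.93 to 0.48, Star from 0.95 to 0.53 and Has2 from 0.87 to 0.46 CPM. Hsd17b1 (0 to 0.19 CPM) and Ptgs2 (0.411 to 0.418 CPM) were higher at MII. The part of the surrounding cells in the changes of the members at MII was not tested.

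All 6 members were abundant mRNAs. Per length, as TMM-normalized CPM per kilobase of transcript, the median in GV oocytes of batch A was 1763 for Zbed3, 806 for Padi6, 613 for Tle6, 341 for Ooep, 195 for Khdc3 and 193 for Nlrp5. Zbed3 was above 99.8% of the 15080 genes with a length, and Nlrp5 above 98.8%. The ranges of Khdc3 (139 to 277) and Nlrp5 (147 to 322) overlapped almost fully. Those of Tle6 (459 to 744) and Padi6 (712 to 1294) overlapped only narrowly, and those of Padi6 and Zbed3 (1021 to 2433) in part. In GV oocytes of batch B Zbed3 had the highest median, at 560, followed by Padi6 (342) and Tle6 (330), with ranges that overlapped among the 3, and by Khdc3 (129), Ooep (118) and Nlrp5 (117), whose ranges overlapped as well. The order depends on the length used. With gene counts over the mean length of the annotated transcripts, the mean of Padi6 in GV oocytes of batch B was 782 instead of 362.6 and that of Zbed3 717.3 instead of 559.1, so that Padi6 came first. In GV oocytes of batch A the mean of Padi6 was 1872 instead of 871.3 and that of Zbed3 2297 instead of 1772. Padi6 was the one member whose mean moved by over 1.5 times, in all 4 groups.

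GV vs. MII was compared within batch A to ask which of these stored mRNAs differed in counts after completed maturation. The libraries had been prepared by the Smart-seq2 protocol. Poly(A) tail length was not measured, and its part in the counts was not tested. Of the 6 members, 4 were lower at MII with an adjusted p under 0.05 (edgeR quasi-likelihood test with Benjamini-Hochberg adjustment over 12929 genes), where 11.5% of all genes tested were called lower. None was called higher, against 9.06% of all genes. Khdc3 and Ooep also passed a 2-fold threshold, as did 6.32% of all genes in that direction. Ooep stayed under 2-fold on HTSeq counts (log2 fold change -0.99), without MII oocyte 1 (-0.97) and in a model of all 37 oocytes with stage and batch as terms (-0.98), and Khdc3 on HTSeq counts (-0.79). The median log2 fold change was -0.68 over the 6 members and 0.01 over all genes tested.

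NLRP5, OOEP and TLE6 form the core of the complex, in which each protein needs the others to be stable. Ooep ranged from 642 to 1313 CPM in the 6 GV oocytes of batch A (median 926) and from 359 to 683 CPM in the 6 MII oocytes (median 455). All but 1 of the MII oocytes lay below every GV oocyte, and the log2 fold change was -1.04 ± 0.19 (SE; edgeR adjusted p = 0.00159). Nlrp5, which encodes a NACHT domain protein also known as MATER, ranged from 642 to 1423 CPM at GV (median 866) and from 549 to 770 CPM at MII (median 606). Of the 6 MII oocytes 5 lay below the lowest GV oocyte, and MII oocyte 2 (770 CPM) stood apart above them, with a log2 fold change of -0.60 ± 0.18 (edgeR adjusted p = 0.0266). This call was lost without MII oocyte 1 (adjusted p = 0.0537) and in a model of all 37 oocytes with stage and batch as terms (adjusted p = 0.0872).

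Tle6, a member of the Groucho family of corepressors, ranged from 812 to 1291 CPM at GV (median 1183) and from 568 to 965 CPM at MII (median 861). The groups overlapped, although all 6 MII oocytes lay below the GV median. Its log2 fold change of -0.45 ± 0.16 did not pass the test (edgeR adjusted p = 0.0587). Of 9 settings, the main one included, Tle6 was called lower in 2. These were DESeq2 (adjusted p = 0.0423) and spike-in scaling (edgeR adjusted p = 0.000682), which called 13.1% and 42.2% of all genes lower. On HTSeq counts the log2 fold change was -0.33 (edgeR adjusted p = 0.189). Tle6 was also not called with the replicate number as a block (edgeR adjusted p = 0.152). In a model of all oocytes with stage and batch as terms the edgeR adjusted p was 0.1775.

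Khdc3, which encodes the KH domain protein FILIA that joins the core through NLRP5, had the lowest adjusted p of the members. It ranged from 221 to 459 CPM at GV (median 322) and from 116 to 186 CPM at MII (median 147). No MII oocyte reached the lowest GV oocyte, and the log2 fold change was -1.15 ± 0.18 (edgeR adjusted p = 0.000402). Khdc3 overlaps Gm20509 on the same strand, so reads of the shared stretch are ambiguous between the genes. RSEM gave Gm20509 a median of 1.43 CPM at GV and 0.501 CPM at MII, while HTSeq kept a median of 0.225 counts for each RSEM count of Khdc3 at GV, against 2.02 for the median well-counted gene. On the HTSeq counts the log2 fold change of Khdc3 was -0.79 (edgeR adjusted p = 0.0187).

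Padi6 belongs to the peptidylarginine deiminase family and is needed for the cytoplasmic lattices of the oocyte. It ranged from 2210 to 3814 CPM at GV (median 2366) and from 1287 to 1719 CPM at MII (median 1576). The groups did not overlap, and GV oocyte 2 was well above the other GV oocytes. The log2 fold change was -0.77 ± 0.15 (edgeR adjusted p = 0.00233).

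Zbed3, a zinc finger protein reported to join the complex and to act on the distribution of organelles in the oocyte, was the only member with a log2 fold change above 0 at MII on the TMM scale, and below 0 with spike-in scaling. It ranged from 2680 to 6004 CPM at GV (median 4400) and from 4132 to 8626 CPM at MII (median 6143). The groups overlapped, with 3 MII oocytes above every GV oocyte. The log2 fold change of 0.51 ± 0.20 did not pass the test (edgeR adjusted p = 0.0799), nor did the value of -0.20 with spike-in scaling (adjusted p = 0.475).

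**Figure D1:**
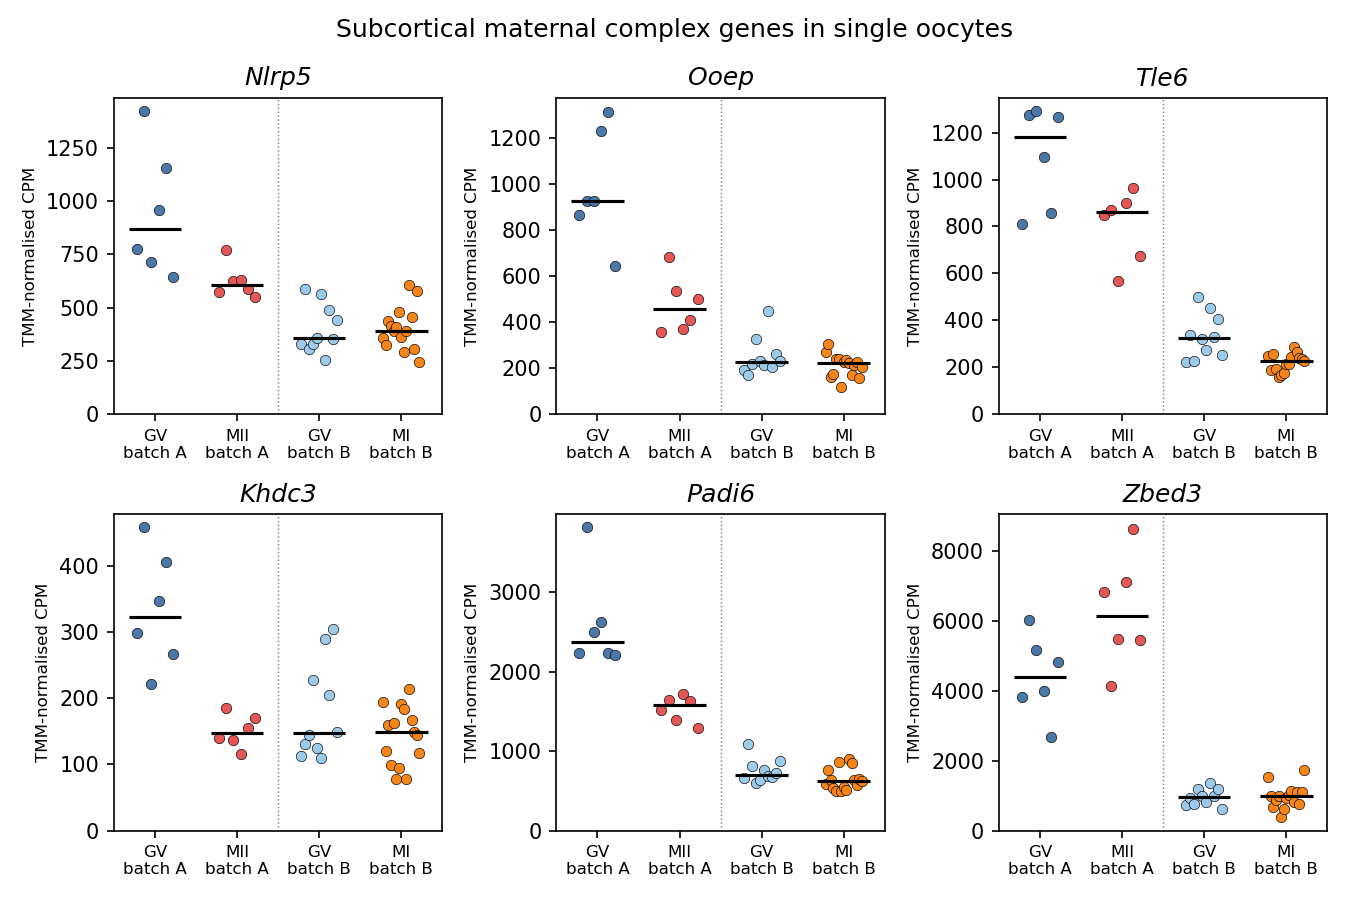
TMM-normalized CPM of each member in every oocyte (points) with the median of each group (bar), GV and MII in batch A and GV and MI in batch B. Khdc3 and Padi6 show no overlap between GV and MII in batch A, and in batch B every member overlaps between GV and MI. The batches differ in the number of oocytes, and the share of all genes without overlap was not counted.

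ERCC spike-in RNA, present at 0.591% to 1.47% of the counts in GV and 0.979% to 1.4% in MII oocytes of batch A, gave a scale that does not assume an equal amount of mRNA in the oocytes. On it the median log2 fold change of all genes tested was -0.72, and the calls shifted from 1490 lower and 1172 higher to 5452 lower and 144 higher. The members moved with this shift, to -1.87 for Khdc3, -1.78 for Ooep, -1.47 for Padi6, -1.32 for Nlrp5 and -1.13 for Tle6, all lower than the median of all genes. Zbed3, at -0.20, was above it. In batch B spike-ins made up at most 0.000277% of the counts in GV and 0.000219% in MI oocytes, and this scaling was not run there. The comparison of GV and MI, and the contrast of MII and MI, therefore stand on a relative scale alone.

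**Figure D2:**
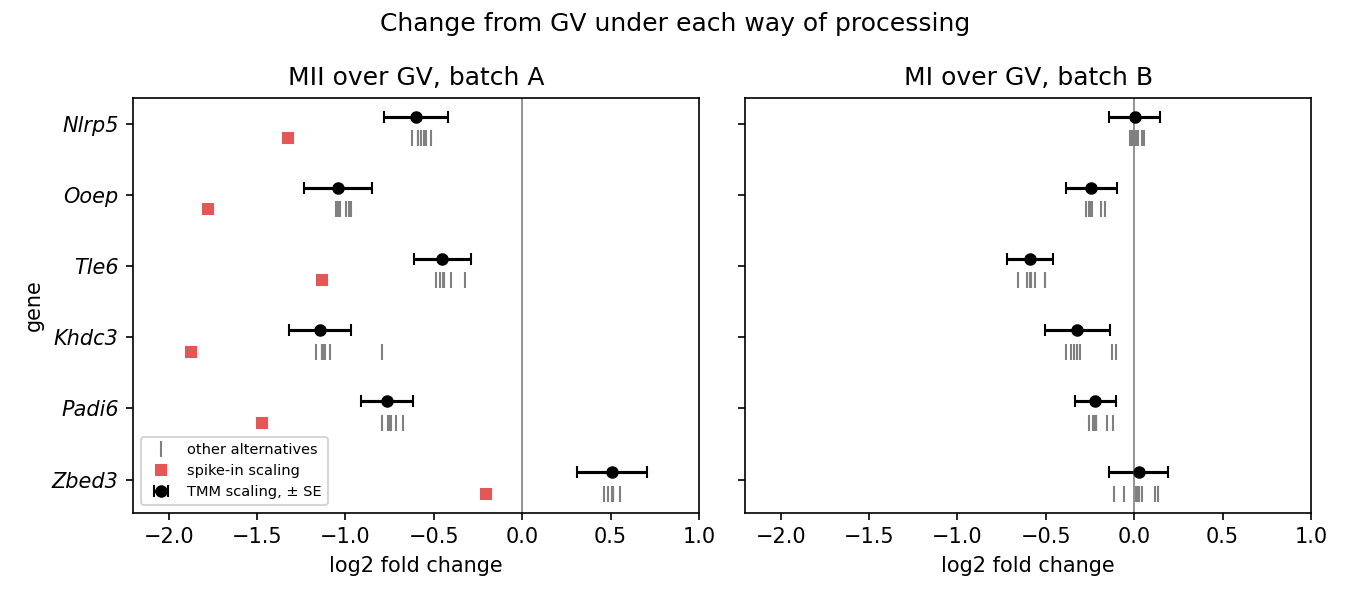
Log2 fold change of each member from GV to MII in batch A (left) and from GV to MI in batch B (right), with TMM scaling (black points, ± SE), with spike-in scaling (red squares, batch A) and under the other alternatives (grey ticks). With spike-in scaling all values of batch A are lower, and Zbed3 turns from 0.51 to -0.20.

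GV vs. MI was compared within batch B, at an intermediate stage. Of the 6 members, Tle6 alone was called lower (edgeR adjusted p under 0.05), where 0.0483% of the 12419 genes tested were called lower. Tle6 ranged from 222 to 500 CPM in the 10 GV oocytes (median 325) and from 160 to 286 CPM in the 15 MI oocytes (median 225). All 15 MI oocytes lay below the GV median and 7 of them below every GV oocyte, and the log2 fold change was -0.59 ± 0.13 (edgeR adjusted p = 0.0499). This adjusted p lay at the threshold. The call was lost on HTSeq counts (edgeR adjusted p = 0.30), with RLE size factors (0.0538), with the replicate number as a block (0.369) and without MI oocytes 4, 8 and 9 (0.0682). It was kept with DESeq2 (adjusted p = 0.00729), and with edgeR in a model of all oocytes (0.0136), without a filter (0.0429) and without MI oocyte 15 (0.0474). Tests without a filter had made many false calls in an earlier simulation of these data. The log2 fold change stayed between -0.66 and -0.51 under all alternatives run.

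The other 5 members did not pass the test at MI. Their log2 fold changes were -0.32 ± 0.19 for Khdc3, -0.24 ± 0.15 for Ooep, -0.22 ± 0.12 for Padi6, 0.03 ± 0.17 for Zbed3 and 0.00 ± 0.14 for Nlrp5. Padi6 ranged from 598 to 1088 CPM at GV (median 705) and from 499 to 899 CPM at MI (median 622), and 7 of the 15 MI oocytes lay below every GV oocyte. Ooep was at a median of 225 CPM at GV and 222 CPM at MI, and Zbed3 at 952 and 979 CPM, with ranges that overlapped. Of the 19 cumulus and granulosa markers 5 were tested in batch B. Gja1 and Ccnd2 were called lower at MI (edgeR adjusted p = 0.0174 for both), from medians of 2.08 and 3.10 CPM at GV to 0.166 and 0.0432 CPM, while Cyp19a1 (log2 fold change -0.22, edgeR adjusted p = 0.742), Nr5a2 (0.75, adjusted p = 0.272) and Has2 (1.21, adjusted p = 0.67) were not called. Hyaluronidase was in the medium used to collect the oocytes, and the zona pellucida was taken off with acid. The part of the surrounding cells in the change of Tle6 was not tested.

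Whether the change differed between MII and MI was tested directly, each stage against the GV oocytes of its own batch. None of the 6 members was called in either direction (edgeR quasi-likelihood test, adjusted p under 0.05), where 2.36% of the 15083 genes tested were called lower and 3.1% higher. At an unadjusted p under 0.05 there were 4, where 17.7% of all genes tested were under it, and DESeq2 was not run on this contrast. Ooep came nearest, at a log2 difference of -0.72 ± 0.25 (adjusted p = 0.0855). It was called when low counts were not filtered (adjusted p = 0.0313), the setting with many false calls in the earlier simulation. The calls of Ooep, Khdc3, Padi6 and Nlrp5 at MII alone are therefore not shown to differ from their values at MI. Stage, batch and maturation in the animal or in culture cannot be told apart in this contrast.

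At the transcript level 31 annotated transcripts of the members were in the table, of which 21 were tested in batch A and 20 in batch B. Between GV and MII 6 of the 21 were lower (edgeR adjusted p under 0.05), where 5.81% of 22461 transcripts tested were called lower, and none was called higher, beside 3.49% of all. These were Khdc3-204, Khdc3-201, Ooep-201, Padi6-201, Nlrp5-201 and Tle6-214, the last annotated with a retained intron. Nlrp5-201 and Tle6-214 lay near the threshold, with edgeR adjusted p = 0.049 and 0.046. With the replicate number as a block 3 transcripts were called, where 1.81% of all were called lower and 0.979% higher, and with spike-in scaling 13, where 22.4% were called lower and 0.516% higher. Between GV and MI none of the 20 was called by edgeR or DESeq2, where edgeR called 0% of 22717 transcripts lower, and DESeq2 0.0748% lower and 0.453% higher. At an unadjusted p under 0.05 there were 5, where 7.11% of all transcripts tested were under it. The 5 were of Tle6, with 4 below 0 and 1 above 0 (log2 fold change 2.10). On simulated counts the transcript tests found fewer of the changed features than the gene tests, so a count of 0 does not show that they did not differ.

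The median shares of Zbed3-202, Nlrp5-202, Tle6-201 and Tle6-205 in their genes lay further apart between the batches than between the stages of a batch, a difference that was not tested, while that of Tle6-214 did not. Zbed3-202 and Zbed3-201 share the exon that holds the 3′ end, at chr13:95336056-95337841 (mm10, plus strand), and differ in the first exon, at chr13:95323612-95323770 and chr13:95325237-95325344. Zbed3-202 held from 57.9% to 99.1% of the Zbed3 counts in GV oocytes of batch A (median 96.8%) and from 90.1% to 96.4% in MII oocytes (median 95.2%). In batch B it held from 21.8% to 70.6% in GV oocytes (median 58.0%) and from 13.4% to 76.9% in MI oocytes (median 54.0%). Within each batch the stages overlapped, whereas the GV oocytes of the 2 batches overlapped only through GV oocyte 1 of batch A.

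Nlrp5-202, which lacks an exon of Nlrp5-201 at chr7:23413305-23413352, showed the same pattern. It held a median of 6.09% of the Nlrp5 counts in GV and 6.57% in MII oocytes of batch A, and 20.5% in GV and 17.7% in MI oocytes of batch B. Tle6-205, a short transcript without a coding sequence, held 7.80%, 6.97%, 19.1% and 19.6% in the same order. One share differed between the stages without overlap and was singled out after its values were seen. How many transcripts of other genes did so was not counted. Nlrp5-206, annotated with a retained intron, held from 1.37% to 2.53% of the Nlrp5 counts at GV and from 3.26% to 4.74% at MII in batch A, and its own change of 0.47 (log2) did not pass the test (edgeR adjusted p = 0.169). In batch B it held from 1.28% to 5.51% at GV (median 3.40%) and from 0.81% to 5.45% at MI (median 2.89%), so the GV oocytes of batch B spanned both ranges of batch A.

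**Figure D3:**
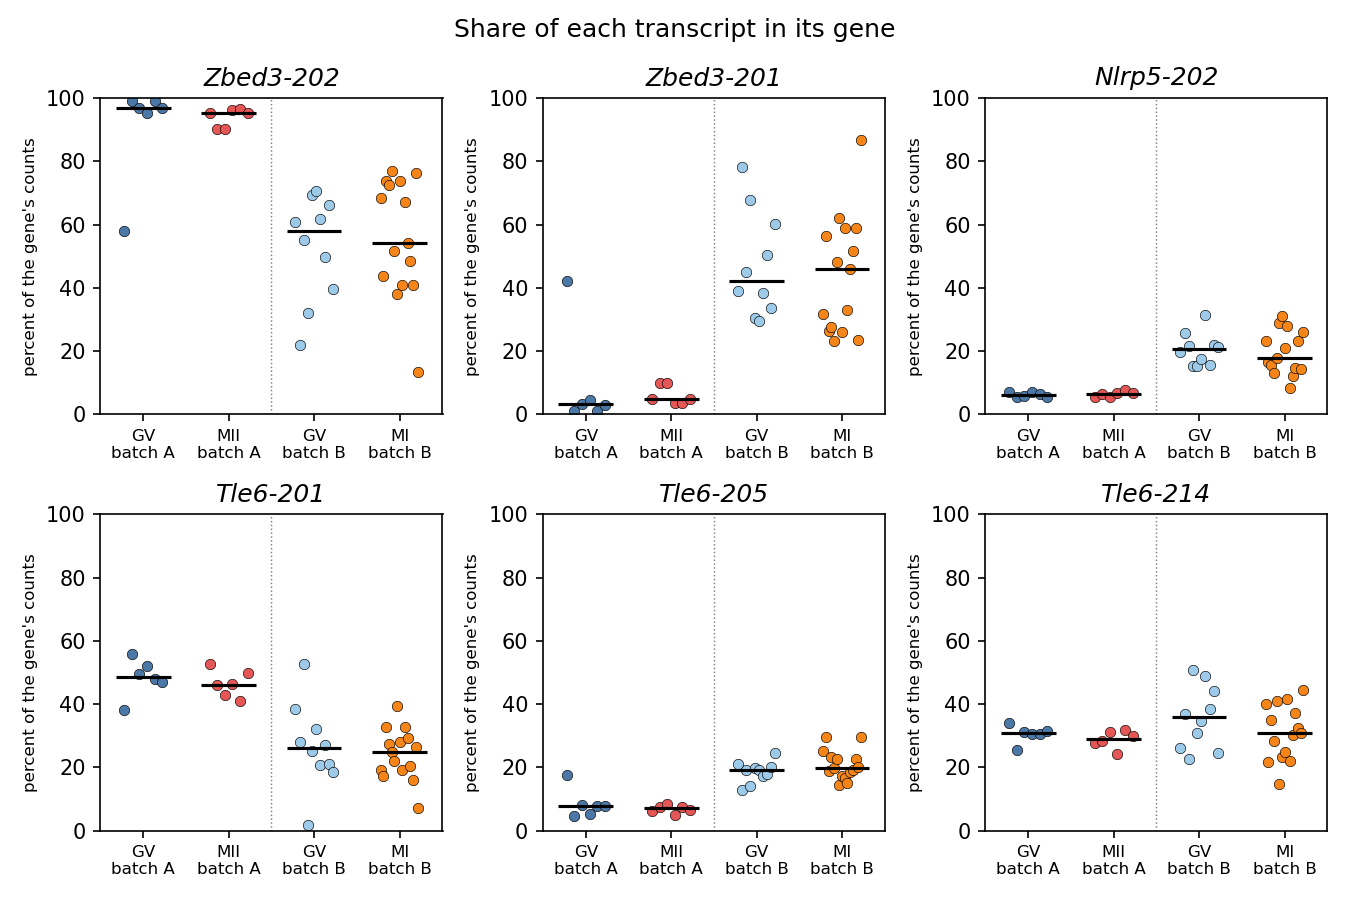
Share of single transcripts in the counts of their gene, in percent, in every oocyte (points) with the median of each group (bar). Zbed3-202 has a median of 96.8% in GV oocytes of batch A and 58.0% in those of batch B, while GV and MII, and GV and MI, overlap within their batch.

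The levels of the GV oocytes also differed between the batches. On a scale fitted to all 37 oocytes, Zbed3 was at a median of 3424 CPM in GV oocytes of batch A and 1070 CPM in those of batch B, a ratio of 3.2. The ratio was 2.89 for Ooep, 2.52 for Tle6, 2.34 for Padi6, 1.66 for Nlrp5 and 1.51 for Khdc3, beside a median of 1.11 over all genes tested. The ranges did not overlap for Zbed3, Ooep, Tle6 and Padi6, but the share of all genes without overlap was not counted. The difference was not tested, and levels of MI and MII oocytes were therefore never set against each other.

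The members varied between oocytes of a group about as much as other genes or less. In MI oocytes the coefficient of variation ran from 17.1% for Tle6 to 34.5% for Zbed3, beside a median of 47.2% over all genes tested, which include many of lower count. In GV oocytes of batch A it ran from 19.8% for Tle6 to 31.7% for Nlrp5, beside 29.2%. The Pearson r of the 15 pairs of members across the 15 MI oocytes ran from -0.593 (Nlrp5 and Ooep) to 0.481 (Tle6 and Khdc3), with a median of 0.194. It ran from -0.689 (Nlrp5 and Ooep) to 0.92 (Tle6 and Zbed3) in the 10 GV oocytes of batch B, with a median of -0.23. In batch A it ran from -0.601 (Ooep and Zbed3) to 0.935 (Nlrp5 and Khdc3) in the 6 GV oocytes, with a median of 0.495, and from -0.878 (Ooep and Zbed3) to 0.836 (Tle6 and Padi6) in the 6 MII oocytes, with a median of 0.181. These r describe cells that share a batch and differ in depth.

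The genes outside the complex whose centred log2(CPM + 1) followed the mean of the 6 members most closely across the 37 oocytes were Uchl1 (r = 0.853), Elobl (0.843), Zp3 (0.81), Uqcrh (0.8) and Tmsb10 (0.795), out of 15077. With each group centred on its own mean, the r of these genes was 0.708, 0.726, 0.666, 0.598 and 0.536. The mean does not stand for each member alike, as its own r was 0.848 with Khdc3, 0.792 with Tle6, 0.705 with Ooep, 0.634 with Padi6, 0.387 with Nlrp5 and 0.19 with Zbed3. With each group centred on its own mean these r were 0.747, 0.746, 0.461, 0.301, 0.201 and 0.586.

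Of 7 genes whose proteins are reported to bind or act with the complex, 3 were lower at MII (edgeR adjusted p under 0.05) and none was higher, beside 11.5% and 9.06% of all genes tested, with a median log2 fold change of -0.55 beside 0.01 over all genes. Nlrp2, a paralogue of Nlrp5 and itself a maternal-effect gene, ranged from 302 to 431 CPM at GV (median 357) and from 131 to 251 CPM at MII (median 156). The groups did not overlap, and the log2 fold change was -1.09 ± 0.17 (edgeR adjusted p = 0.00043). Nlrp14 changed by -0.79 (adjusted p = 0.0102) and Cfl1, which encodes the actin-severing protein cofilin, by -0.63 (adjusted p = 0.0183). At MI none of the 7 was called by edgeR or DESeq2, where edgeR called 0.0483% of all genes lower and 0.0966% higher, and 1 had an unadjusted p under 0.05, as had 11.0% of all genes. The change of Nlrp2 differed between MII and MI, by -1.23 ± 0.23 on the log2 scale (edgeR adjusted p = 0.000794).

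Of 16 paralogues of the members other than Nlrp5, a list without Nlrp genes, 10 were tested in batch A, and 1 was called, where 11.5% of all genes tested were called lower and 9.06% higher. Dppa5a, a KH domain gene like Khdc3 and Ooep, was lower at MII by -1.61 ± 0.32 on the log2 scale (edgeR adjusted p = 0.0027), from a median of 188 to 61.3 CPM, and its change also differed from that at MI (adjusted p = 0.0354). Of 10 maternal-effect genes outside the complex 3 were lower at MII and 1 higher, beside these same shares of all genes. The lower genes were Npm2, a histone chaperone (-1.24, adjusted p = 1.46e-05), the DNA methyltransferase gene Dnmt1 (-0.89, adjusted p = 0.00102) and Zar1l (-0.80, adjusted p = 0.0035), all by edgeR. Trim28 was higher by 0.66 (edgeR adjusted p = 0.0141), and stood at -0.10 with spike-in scaling. The changes of Npm2 and Dnmt1 at MII also differed from those at MI, each against the GV oocytes of its own batch (edgeR adjusted p = 0.000641 and 0.00768). Of 7 oocyte transcription factors 6 were tested in batch A, and Figla (-1.16, edgeR adjusted p = 0.0199) and Nobox (-0.65, adjusted p = 0.00586) were lower, beside 11.5% of all genes. Sohlh2, above 0 at MII, was not called by edgeR (0.73, edgeR adjusted p = 0.0732) but was by DESeq2, which called 13.1% of all genes lower and 11.5% higher. At MI edgeR called none of the genes of these lists, where it called 0.0483% of all genes lower and 0.0966% higher. At an unadjusted p under 0.05 there were 1 of the paralogues, 2 of the maternal-effect genes and 1 of the transcription factors, as were 11.0% of all genes, and DESeq2 called 1, Gtf2b, lower (-0.45, adjusted p = 0.0426), where it called 0.322% of all genes lower.

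The 3′ ends of the members are shown because stored oocyte mRNAs are read through short elements there. In the last 100 bases of the most abundant protein-coding transcript of each member, AATAAA and ATTAAA (the polyadenylation signal) and TTTTAT and TTTTAAT (forms of the cytoplasmic polyadenylation element) were searched on the transcript strand, in GENCODE sequences on mm10. A polyadenylation signal was present in 5 of the 6, and in 78.7% of 12368 transcripts of genes tested. Ooep-201 held none of these letters in this window. A cytoplasmic polyadenylation element was present in Zbed3 alone, with both forms, and in 19.0% of the 12368 transcripts, and its TTTTAAT overlaps the AATAAA. The 30 bases around the signal are given 5′ to 3′ with the elements in capitals.
Nlrp5-201, chr7:23441887-23441916, plus strand: tagcaagaatgaAATAAAcacagcatttag
Tle6-201, chr10:81590907-81590936, minus strand: cgagttgcgtgtAATAAAacaattgaaatg
Khdc3-204, chr9:73104409-73104438, plus strand: ttaaagtattctAATAAAaaaaaaattgca
Padi6-201, chr4:140727361-140727390, minus strand: tgccatagagccAATAAAgcatggtattct
Zbed3-202, chr13:95337809-95337838, plus strand: ttttttttTTTTAATAAAcTTTTATttatc
That 1 of 6 members held a cytoplasmic polyadenylation element is near the share of all transcripts (19.0%). The log2 fold change of Zbed3 at MII was above 0 on the TMM scale but did not pass the test (edgeR adjusted p = 0.0799), and was -0.20 with spike-in scaling. With 6 genes this is a description, and no part of the elements in the change was tested.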

How the data were processed

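The authors trimmed reads with Trim Galore 0.6.4 and estimated the deposited expected counts per gene and transcript with RSEM 1.3.1, on mm10 with GENCODE VM20 and ERCC sequences. The deposited HTSeq counts came from STAR 2.7.6a alignments counted with HTSeq 0.12.4, and the strand setting was not stated in the sources used here. Neither was normalized. Identifiers were matched without version to GENCODE M21 (54723 of 54752 genes, 138789 of 138835 transcripts).

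Expected counts were rounded, the 92 spike-ins entered neither tests nor library sizes, low counts were removed with filterByExpr, and stages were tested within batch with edgeR 4.0.16 (quasi-likelihood, TMM, Benjamini-Hochberg) in R 4.3.3. Calls needed an adjusted p under 0.05. The CPM values use TMM library sizes. Levels per length divide the CPM of each transcript by its length, and the alternative divides the CPM of the gene by the mean length of its annotated transcripts. Alternatives were HTSeq counts, RLE and spike-in size factors, DESeq2 1.42.0, no filter, a replicate block, all oocytes in 1 model, and libraries left out. The edgeR tests with TMM and the filter, and DESeq2 within batches, were tried on simulated counts, and the other alternatives were not. Fold changes were recovered without bias, but the transcript tests found fewer of the changed features than the gene tests at the spread of these oocytes, and DESeq2 made many false calls among transcripts. Members and lists were chosen with earlier results of these data known. Genes named are the members, the genes of the lists that passed the edgeR or DESeq2 test, and the 5 most alike. Gm20509 and some markers that did not pass or were not tested are named as well. Reads carried no molecular identifiers.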

Additional observations from a re-analysis of the deposited data

Results flagged for a closer look

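In the 18 combinations of a member with a group of 6 or 10 oocytes, 2 had an oocyte far from the others. About 1 in 20 was taken as the rate by chance, which was not measured on these oocytes. Padi6 in GV oocyte 2 of batch A was at 3814 CPM, well above the other GV oocytes. Nlrp5 in MII oocyte 2 was at 769.7 CPM, above the other MII oocytes.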

How the results depend on the processing

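Of 48 values of the members' log2 fold change at MII under the alternatives, 43 kept their direction and their side of the threshold, as did 44 of 54 at MI. Zbed3 at MII turned to -0.20 with spike-in scaling. At MI, where Nlrp5 and Zbed3 were near 0, Nlrp5 turned to -0.0017 without a filter, -0.026 with the replicate block and -0.012 in the model of all oocytes, and Zbed3 to -0.11 with the replicate block and -0.058 without MI oocyte 15. The causes were not tested.

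Of the members, 4 were called at MII, 3 without MII oocyte 1 and in the model of all oocytes, and 5 with spike-in scaling and DESeq2, where 11.5%, 9.5%, 4.05%, 42.2% and 13.1% of all genes were called lower in that order. At MI 1 was called, and 0 on HTSeq counts, with RLE size factors, with the replicate block, without MI oocytes 4, 8 and 9, and on HTSeq counts without them, the last chosen after seeing the data. Of all genes 0.0483% were called lower at MI, and 0%, 0.0242%, 0%, 0.0335% and 0% in these settings, so with HTSeq counts and with the block the count was 0 over all genes too. In the contrast of MII and MI 0 were called, and 1 without a filter, where 2.36% and 1.36% of all genes were called lower and 3.1% and 2.71% higher. Of the transcripts 6 were called at MII, 13 with spike-in scaling and 3 with the replicate block, where 5.81%, 22.4% and 1.81% of all transcripts tested were called lower and 3.49%, 0.516% and 0.979% higher. Without MII oocyte 1 it was 4 transcripts (4.2% lower and 2.27% higher), without a filter 5 (1.03% and 0.547%) and with DESeq2 7 (8.77% and 6.46%). With the block 4 genes were called at MII, where 7.66% of all were called lower and 4.62% higher, and 0 transcripts at MI, where 0% of all were called. The labels link oocytes of the same number by nothing but the number. Their deviations correlated from -0.361 to 0.356 in batch A and from -0.177 to 0.116 in batch B. Of the GV oocytes, 1 of 6 in batch A and 0 of 10 in batch B correlated best with its own number. With so few oocytes this does not settle whether they shared an animal or handling.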
